A study of Rattus norvegicus with 12 samples.

Results

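The genes of fatty acid oxidation and activation were followed in the ovarian RNA of control, PCOS and PCOS-MV rats. The members were 38 genes given by name. The rule uses no measured value but was set with earlier results of these data known. Of the 38, 37 were found among the 19730 genes of the deposited expression table by an exact match of the gene name. Eci2 had no row under that name. The members were divided into the carnitine shuttle (6 genes), the mitochondrial beta-oxidation spiral (12 genes found), the electron transfer chain of the acyl-CoA dehydrogenases (3 genes), peroxisomal steps (5 genes), fatty acid activation and transport (7 genes), acyl-CoA thioesterases (2 genes) and transcriptional coactivators (2 genes). The 12 libraries were each made from the whole ovary tissue of 1 wild-type Sprague Dawley rat at postnatal week 15, 4 rats per group. Control rats ate standard food and received no drug. PCOS rats had received letrozole, an inhibitor of the enzyme that turns androgens into estrogens, together with a high-fat diet (HFD) for 30 days as a model of polycystic ovary syndrome. PCOS-MV rats had the same induction and then took mogroside V (MV), a sweet-tasting triterpene glycoside of monk fruit, by gavage for 30 days. Per the study's methods, all rats were killed when the MV treatment ended. The PCOS ovaries were thus taken after the stated 30 days of induction, not during them. The drug and the diet were given together and cannot be told apart, and no group received MV without the induction. The MV preparation was, per the study's methods, made from fresh fruit and only in part mogroside V. No vehicle gavage of PCOS rats is described for the treatment days, so MV, the other contents and the gavage cannot be told apart.

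Fatty acids are burned in steps that are shared between mitochondria and peroxisomes. Long-chain acyl-CoA synthetases first couple a fatty acid to coenzyme A, the carnitine shuttle then carries the acyl group across the inner mitochondrial membrane, and the beta-oxidation spiral shortens it by repeated dehydrogenation, hydration, oxidation and thiolysis. Peroxisomes shorten very long and branched chains and pass the products on as carnitine esters. In the ovary, beta-oxidation is known to supply energy to the oocyte and to the surrounding follicle cells, and acyl-CoA synthetases and carnitine esters also feed steroid-producing cells, which store lipid as cholesteryl esters.

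Values are FPKM, read fragments scaled for the length of the gene and for the size of the library, so that levels can be set side by side between genes. Values of a group are listed in the order of its replicates 1 to 4, to which the labels give no meaning beyond the name. Differences between groups are log2 differences of FPKM + 1 with their standard error, from limma, a ± after a mean FPKM is the SD of 4 rats, and a gene was called at an adjusted p-value under 0.05 over all 13430 genes whose mean reached 1 FPKM. Of the 37 members, 34 passed this minimum and Acox2, Acsl6 and Ppargc1a did not. Within a group, the log2 values of 2 libraries correlated across genes with r between 0.954 and 0.989, and Control replicate 3 stood apart in several marker genes described with the results they touch. The ovary markers were present in every library, with oocyte markers summing to 14.0 to 24.4 FPKM in control, 13.6 to 15.0 in PCOS and 15.4 to 24.8 in PCOS-MV. Since the RNA came from the whole ovary, fewer cells of a type and less RNA per cell cannot be told apart. All 4 PCOS libraries enter both the comparison with control and the comparison with PCOS-MV.

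The starts of 5 transcription units are shown because their members recur in the results: the stretch shared by the head-to-head pair Hadha and Hadhb, the upstream 250 bases of Cpt2 and Acsl1, which were lower in PCOS, and those of Crot and Acaa1a, which were higher. Sequences are from RefSeq (assembly GRCr8), 5′ to 3′ on the strand of the gene, with capitals marking a GC box (GGGCGG) or a CCAAT box (CCAAT) on either strand, so that CCGCCC and ATTGG are capitalised too. The FPKM table uses its own coordinates, whose genome build is not given in the sources used here.
Hadha and Hadhb, the 243 bases between the genes, chr6:31907558-31907800, plus strand: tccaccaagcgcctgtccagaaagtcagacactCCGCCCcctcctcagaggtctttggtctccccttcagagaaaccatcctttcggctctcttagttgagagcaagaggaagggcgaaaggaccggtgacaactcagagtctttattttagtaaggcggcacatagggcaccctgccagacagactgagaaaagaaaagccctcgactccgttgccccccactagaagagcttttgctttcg
Cpt2, chr5:127910819-127911068, minus strand: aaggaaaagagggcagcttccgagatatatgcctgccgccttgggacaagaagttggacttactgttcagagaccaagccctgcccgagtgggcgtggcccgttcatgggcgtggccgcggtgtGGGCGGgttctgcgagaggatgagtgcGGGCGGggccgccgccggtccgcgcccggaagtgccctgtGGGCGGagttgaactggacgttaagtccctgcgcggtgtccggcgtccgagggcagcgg
Acsl1, chr16:52532393-52532642, minus strand: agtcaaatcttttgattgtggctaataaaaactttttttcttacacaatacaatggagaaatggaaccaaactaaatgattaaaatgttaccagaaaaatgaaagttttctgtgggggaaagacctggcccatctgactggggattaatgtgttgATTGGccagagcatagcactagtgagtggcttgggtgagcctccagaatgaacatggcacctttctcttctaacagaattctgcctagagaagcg
Crot, chr4:26052874-26053123, plus strand: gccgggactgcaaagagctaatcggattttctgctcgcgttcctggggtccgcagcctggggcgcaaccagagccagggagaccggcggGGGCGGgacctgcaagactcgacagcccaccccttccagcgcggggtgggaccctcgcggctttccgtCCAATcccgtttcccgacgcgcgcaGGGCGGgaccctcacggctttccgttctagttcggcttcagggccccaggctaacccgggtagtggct
Acaa1a, chr8:127957231-127957480, plus strand: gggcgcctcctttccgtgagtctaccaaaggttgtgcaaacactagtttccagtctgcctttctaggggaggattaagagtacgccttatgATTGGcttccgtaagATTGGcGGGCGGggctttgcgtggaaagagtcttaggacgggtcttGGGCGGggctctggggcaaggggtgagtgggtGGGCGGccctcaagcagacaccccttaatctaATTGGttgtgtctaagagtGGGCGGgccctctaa
Promoter windows of 300 bases were matched for 32 of the 37 members, and none was listed for Cpt1b, Cpt1c, Acadl, Acaa2 or Decr1. A GC box stood in 22 of the 32 windows (68.8%) and in 33.1% of all 33469 windows, a CCAAT box in 14 (43.8%) and in 37.5%, and the letters AGGTCA, 1 arm of a nuclear receptor element, in 5 (15.6%) and in 16.2%. All motifs were searched on both strands. The exact repeat AGGTCANAGGTCA, which holds AGGTCA at both ends and is the form that PPAR and RXR are known to bind, was in 0 member windows and in 18 of all windows. These are letter matches, not sites. Acsl1 showed no GC box in its printed stretch, whereas that of Acaa1a held 4 GC boxes and 3 CCAAT boxes.

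The comparison of PCOS with control asks what the induction changed. Most of the tested members changed, and more fell than rose. Of the 34 tested members, 21 were called (61.8%), compared with 27.4% of all genes tested. Among them 14 were lower in PCOS (41.2%, against 15.6% of all genes) and 7 were higher (20.6%, against 11.9%), and the median log2 difference was -0.24 over the members and -0.03 over all genes. The ranges of the groups did not overlap for 23 members (67.6%, against 31.0% of all genes). The fallers were Cpt2 and Crat of the carnitine shuttle, Acadvl, Hadha, Hadhb, Acaa2 and Decr1 of the mitochondrial spiral, the peroxisomal oxidase Acox3, the synthetases Acsl1, Acsl3 and Acsl4, the thioesterases Acot1 and Acot2, and the coactivator Ppargc1b. Acadl, Hadh and Eci1 of the mitochondrial spiral, the electron carrier subunit Etfb, the peroxisomal Acaa1a and Crot, and the transporter Slc27a1 were higher. The count of higher members was 4 without PCOS replicate 1, 2 or 4 and 9 without Control replicate 3, and 4 when 1 model was fitted over all 12 libraries, in which Eci1, Etfb and Slc27a1 were no longer called (adjusted p = 0.0795 to 0.0954), nor were the fallers Hadha, Hadhb and Acot1 (adjusted p = 0.0611 to 0.205).

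The comparison of PCOS-MV with PCOS asks what MV treatment changed after the induction, and here more members were higher than lower. Of the 34 tested members, 16 were called (47.1%, against 25.7% of all genes), of which 12 were higher (35.3%, against 14.3%) and 4 lower (11.8%, against 11.4%). The median difference was 0.19 over the members and 0.03 over all genes, and 17 members did not overlap between the groups (50.0%, against 30.0%). Members outside the peroxisome numbered 30 tested, with 12 higher and 1 lower, while all 3 called peroxisomal members were lower. In PCOS-MV against control, 0 of the 34 members were called by limma, compared with 1 gene (0.00745%) among all genes tested, and 4 members had an unadjusted p under 0.05, compared with 1142 of all genes (8.50%). The comparison of MV with PCOS uses the same PCOS libraries as the comparison with control, so a PCOS library with an unusual value moves both in opposite directions.

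**Figure D1:**
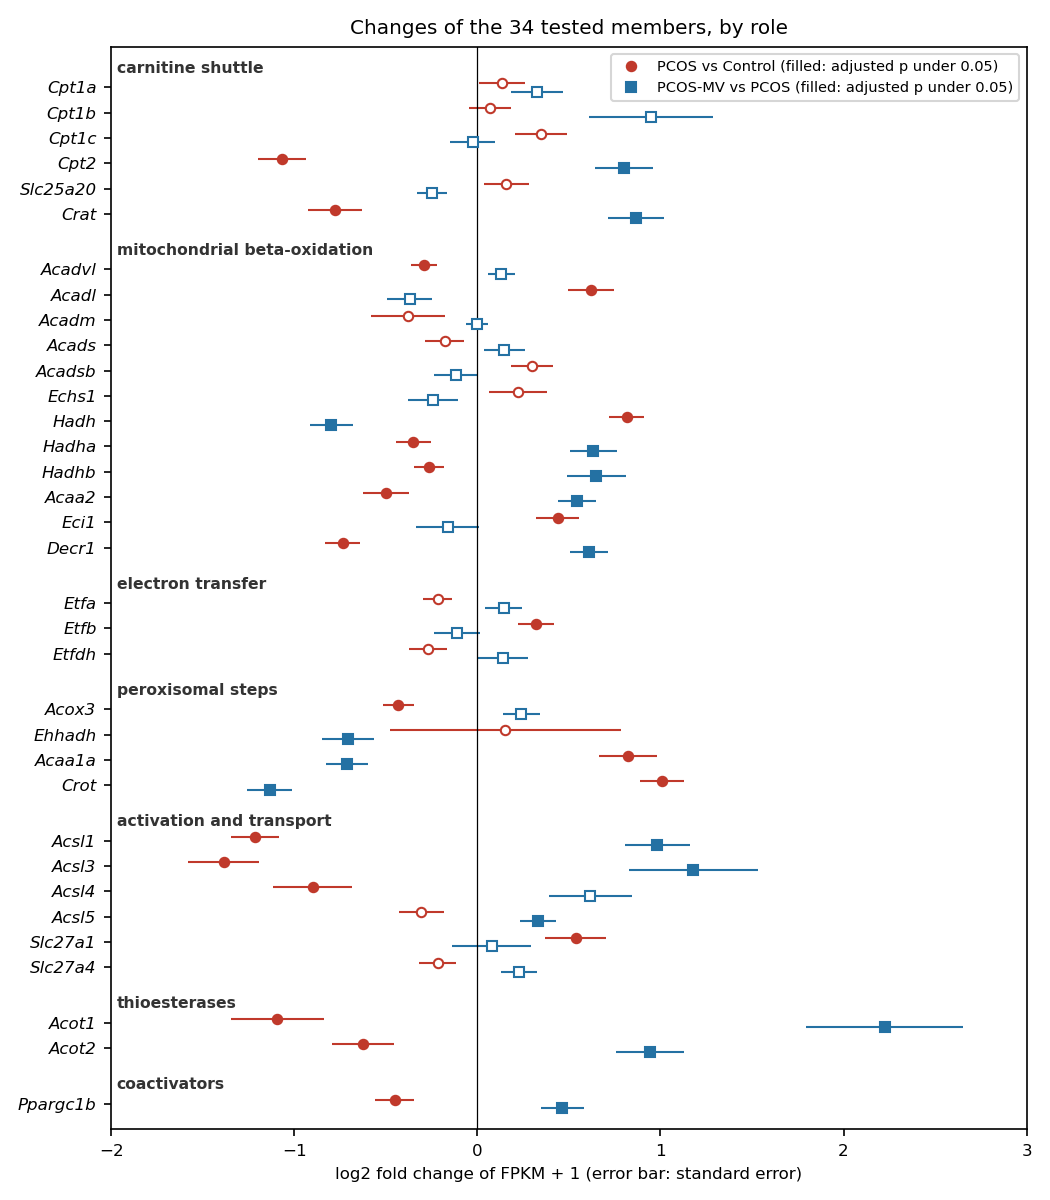
Log2 differences of FPKM + 1 with standard errors for the 34 tested members, in rows by role, for PCOS against control (red circles) and PCOS-MV against PCOS (blue squares), 4 rats per group, with filled symbols where the adjusted p is under 0.05. Filled red symbols lie on both sides of 0, 14 on the left and 7 on the right, and Acot1 has the widest bar on the blue side.

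Of the 6 genes of the carnitine shuttle, Cpt2 and Crat fell in PCOS and rose with MV, and the other 4 were not called in either comparison. The share called was 33.3% in each comparison, near the 27.4% of all genes in PCOS and the 25.7% with MV. Cpt2, the carnitine palmitoyltransferase of the inner membrane that hands the acyl group back to coenzyme A (chromosome 5, 127505614 to 127523089), measured 50.9, 45.2, 32.8 and 38.1 FPKM in control, 20.8, 19.2, 17.8 and 19.0 in PCOS and 41.6, 26.4, 42.8 and 28.6 in PCOS-MV. All 4 PCOS libraries lay below every other library, and within PCOS-MV, replicates 1 and 3 were high and replicates 2 and 4 low. Cpt2 fell by 1.07 ± 0.13 (adjusted p = 0.00055) in PCOS against control, a mean 2.18-fold lower, and rose by 0.80 ± 0.16 (adjusted p = 0.00806) in PCOS-MV against PCOS. Crat, the carnitine acetyltransferase that buffers acetyl-CoA, measured 49.5, 50.1, 36.8 and 40.6 FPKM in control, 19.4, 26.3, 26.7 and 29.5 in PCOS and 41.9, 41.7, 60.1 and 45.5 in PCOS-MV. Again PCOS was below the rest in every library, and Crat fell by 0.78 ± 0.15 (adjusted p = 0.0052) in PCOS and rose by 0.87 ± 0.15 (adjusted p = 0.00499) in PCOS-MV. Both genes kept their call in both comparisons when any single library was left out. Slc25a20, the carnitine-acylcarnitine translocase between the 2 transferases, ranged from 31.4 to 48.9 FPKM over the 12 libraries, with a difference of 0.16 ± 0.12 (adjusted p = 0.377) in PCOS and -0.25 ± 0.08 (adjusted p = 0.0596) in PCOS-MV. It was called higher in PCOS only without Control replicate 1 (adjusted p = 0.0435) and lower in PCOS-MV only without PCOS-MV replicate 1 (adjusted p = 0.0312).

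The 3 forms of carnitine palmitoyltransferase 1, the outer-membrane enzyme that commits an acyl group to mitochondrial oxidation, were not called when the groups were compared 2 at a time with all libraries. Cpt1a, the liver form and by far the most abundant here, measured 63.2, 52.4, 44.3 and 46.0 FPKM in control, 63.4, 49.5, 54.4 and 57.8 in PCOS and 58.7, 80.7, 61.0 and 85.7 in PCOS-MV. The PCOS values overlapped those of control, while PCOS-MV replicates 2 and 4 were above every other library. The differences were 0.13 ± 0.12 (adjusted p = 0.459) in PCOS and 0.33 ± 0.14 (adjusted p = 0.123) in PCOS-MV against PCOS. Cpt1b, the muscle form, measured 0.876, 0.873, 1.08 and 1.15 FPKM in control, 1.17, 1.04, 1.2 and 0.949 in PCOS and 1.61, 4.46, 1.47 and 6.48 in PCOS-MV. Its 4 PCOS-MV libraries were all above the 8 others, and replicates 2 and 4 stood far above replicates 1 and 3. The difference was 0.95 ± 0.34 (adjusted p = 0.0733) against PCOS and 1.02 ± 0.35 (adjusted p = 0.534) against control, with an exact two-sided permutation p of 0.0286 in each, the smallest that 4 against 4 can give. Without PCOS-MV replicate 1 or 3 the comparison with PCOS was called (adjusted p = 0.0307 to 0.0424). It was also called in 1 model over all 12 libraries (0.95, adjusted p = 0.0376). Cpt1b was the member with groups that did not overlap in PCOS-MV against control, 1 of 34 (2.94%, against 5.10% of all genes). The skeletal muscle markers Ckm, Acta1, Tnnt3 and Mylpf summed to 0.916 to 8.62 FPKM in control, 1.18 to 2.31 in PCOS and 0.973 to 2.25 in PCOS-MV, and the adipocyte markers to 15.4 to 27.3 in PCOS and 17.1 to 23.1 in PCOS-MV, so the sums of both lists overlapped between PCOS and PCOS-MV. Of the adipocyte markers, Cidea, a lipid droplet protein, was the exception, at 1.49, 1.90, 1.36 and 1.52 FPKM in PCOS and 3.11, 2.64, 5.99 and 9.40 in PCOS-MV. The part of these cells in the Cpt1b values was not tested. The level of Cpt1a over that of Cpt1b was 45.3 to 60.9 in PCOS and 13.2 to 41.6 in PCOS-MV. Cpt1c, the neuronal form of the endoplasmic reticulum, measured 0.959, 1.13, 1.57 and 0.841 FPKM in control, 1.59, 1.76, 2.06 and 1.37 in PCOS and 1.59, 1.93, 1.21 and 1.86 in PCOS-MV. The PCOS values overlapped those of Control replicate 3, and the difference of 0.35 ± 0.14 (adjusted p = 0.107) became a call only without that library (adjusted p = 0.0302).

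In the mitochondrial spiral, 5 of the 12 tested genes fell in PCOS (41.7%, against 15.6% of all genes) and 3 rose (25.0%, against 11.9%). With MV 4 rose (33.3%, against 14.3%) and 1 fell (8.33%, against 11.4%). The first step is made by acyl-CoA dehydrogenases that differ in the chain length they prefer, and 2 of them changed in opposite directions. Acadvl, the very-long-chain enzyme, measured 58.3, 51.3, 53.2 and 59.2 FPKM in control, 48.1, 45.0, 43.7 and 43.8 in PCOS and 48.6, 45.8, 54.3 and 49.8 in PCOS-MV. PCOS lay below control in every library by a small margin, and Acadvl fell by 0.29 ± 0.07 (adjusted p = 0.0172), a call lost without PCOS replicate 2 or 4 (adjusted p = 0.0502 to 0.0559), with 0.13 ± 0.07 (adjusted p = 0.218) in PCOS-MV against PCOS. Acadl, the long-chain enzyme, measured 55.5, 56.3, 77.3 and 66.4 FPKM in control, 113, 94.4, 87.8 and 98.1 in PCOS and 69.1, 76.6, 65.7 and 93.4 in PCOS-MV. Here the PCOS libraries were above all control libraries, and Acadl rose by 0.62 ± 0.12 (adjusted p = 0.00688), with -0.37 ± 0.12 (adjusted p = 0.0597) in PCOS-MV, where it was called lower only without PCOS-MV replicate 4 (adjusted p = 0.0193). The level of Acadvl over that of Acadl was therefore 0.689 to 1.05 in control, 0.426 to 0.498 in PCOS and 0.533 to 0.826 in PCOS-MV. Acadm, the medium-chain enzyme, was close to 32.2 FPKM in PCOS (31.9 to 32.6) and in PCOS-MV (30.0 to 33.7), and reached 68.6 in Control replicate 3 against 32.8 to 39.0 in the other control libraries. All its PCOS libraries were below all control libraries, and the difference of -0.38 ± 0.20 (adjusted p = 0.202) was not called. The short-chain Acads (30.3 to 44.9 FPKM over all libraries) and the short and branched-chain Acadsb (8.83 to 15.2) were not called, with differences of -0.18 ± 0.11 (adjusted p = 0.254) and 0.30 ± 0.12 (adjusted p = 0.0902) in PCOS.

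Hadha and Hadhb, the alpha and beta subunits of the trifunctional protein that carries out the later steps for long chains, fell in PCOS and rose in PCOS-MV. Hadha (chromosome 6, 27589657 to 27629175) measured 157, 148, 120.4 and 142 FPKM in control, 117, 111, 103 and 113 in PCOS and 162, 183, 139 and 215 in PCOS-MV. Hadhb, its neighbour across the 243 bases shown above, measured 131, 135, 109 and 125 FPKM in control, 109, 103, 100.03 and 103 in PCOS and 150.1, 187, 119.6 and 209.8 in PCOS-MV. For both genes the PCOS libraries lay below all control libraries, with the nearest Hadhb values at 108.67 FPKM in PCOS replicate 1 and 108.83 in Control replicate 3, and PCOS-MV replicates 2 and 4 were the 2 highest of all 12 libraries. Hadha fell by 0.35 ± 0.09 (adjusted p = 0.0249) in PCOS and rose by 0.63 ± 0.13 (adjusted p = 0.00887) in PCOS-MV against PCOS, and Hadhb fell by 0.27 ± 0.08 (adjusted p = 0.0428) and rose by 0.65 ± 0.16 (adjusted p = 0.0193). The falls in PCOS did not hold without some of the libraries. That of Hadha was lost without Control replicate 1, 2 or 4 or PCOS replicate 2, 3 or 4 (adjusted p = 0.0504 to 0.0693), and that of Hadhb without any library other than Control replicate 3 (adjusted p = 0.0544 to 0.113). The rise of Hadha with MV kept its call without any single library, and that of Hadhb was lost without PCOS replicate 2, 3 or 4 or PCOS-MV replicate 2 (adjusted p = 0.0502 to 0.0518). The 2 subunits kept a level ratio of 0.976 to 1.2 in all 12 libraries.

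Hadh, the hydroxyacyl-CoA dehydrogenase for short and medium chains, moved in the opposite direction to the trifunctional protein. It measured 46.4, 44.8, 35.4 and 40.8 FPKM in control, 77.2, 71.3, 69.97 and 78.2 in PCOS and 53.6, 37.6, 37.7 and 41.7 in PCOS-MV. All 4 PCOS libraries were above every other library, and Hadh rose by 0.82 ± 0.09 (adjusted p = 0.000429) in PCOS, a mean 1.77-fold higher, and fell by 0.80 ± 0.12 (adjusted p = 0.00192) in PCOS-MV, with both calls kept without any single library. Echs1, the short-chain hydratase, ranged from 30.7 to 50.8 FPKM and was not called, with 0.22 ± 0.16 (adjusted p = 0.331) in PCOS and -0.24 ± 0.14 (adjusted p = 0.235) in PCOS-MV, the latter called lower only without PCOS-MV replicate 1 (adjusted p = 0.0404). Acaa2, the mitochondrial thiolase and the member with the highest mean level (197 FPKM over all libraries), measured 235, 227, 179 and 226 FPKM in control, 159.9, 161, 125 and 166 in PCOS and 208, 231, 220.2 and 229 in PCOS-MV. The PCOS libraries were the lowest, with replicate 3 below the other 3, and Acaa2 fell by 0.50 ± 0.12 (adjusted p = 0.0176) in PCOS and rose by 0.54 ± 0.10 (adjusted p = 0.00684) in PCOS-MV. Its fall in PCOS missed the threshold without Control replicate 2 (adjusted p = 0.0503).

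The auxiliary enzymes of unsaturated fatty acids also split. Decr1, the dienoyl-CoA reductase, measured 105, 103, 119 and 129 FPKM in control, 73.0, 69.3, 60.6 and 68.7 in PCOS and 102, 87.4, 116 and 112 in PCOS-MV. The PCOS libraries were all below the rest, and Decr1 fell by 0.74 ± 0.10 (adjusted p = 0.000768) in PCOS, a mean 1.68-fold lower, and rose by 0.61 ± 0.10 (adjusted p = 0.00407) in PCOS-MV, without change when any library was left out. Eci1, an enoyl-CoA isomerase, measured 53.5, 43.2, 42.7 and 35.2 FPKM in control, 59.7, 60.8, 55.3 and 59.8 in PCOS and 59.6, 59.8, 34.8 and 61.2 in PCOS-MV. PCOS lay above control, and in PCOS-MV replicate 3 alone was just under the control range. Eci1 rose by 0.44 ± 0.12 (adjusted p = 0.0231) in PCOS, a call lost without Control replicate 2 or PCOS replicate 1, 2 or 4 (adjusted p = 0.0515 to 0.063), and the difference in PCOS-MV against PCOS was -0.16 ± 0.17 (adjusted p = 0.53).

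**Figure D2:**
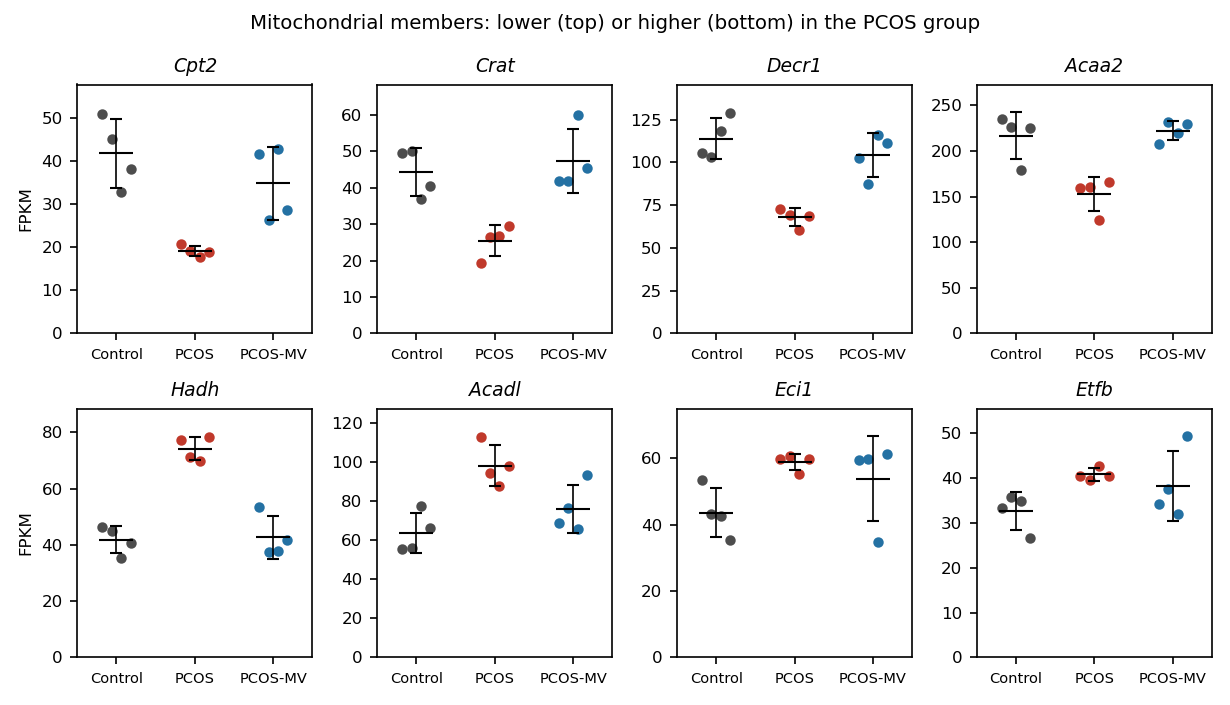
FPKM of 8 mitochondrial members in each library (points), with the group mean and SD (bars), 4 rats per group. Cpt2, Crat, Decr1 and Acaa2 in the top row are lowest in PCOS, and Hadh, Acadl, Eci1 and Etfb in the bottom row are higher in PCOS than in control, with Hadh at 69.97 to 78.2 FPKM in PCOS against 35.4 to 46.4 in control.

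Electrons from the dehydrogenases pass through the electron transfer flavoprotein, of subunits Etfa and Etfb, to its ubiquinone oxidoreductase Etfdh. Etfb measured 33.3, 35.9, 35.0 and 26.6 FPKM in control, 40.4, 39.7, 42.8 and 40.5 in PCOS and 34.2, 37.5, 32.0 and 49.4 in PCOS-MV. Its PCOS libraries were above all control libraries, and Etfb rose by 0.32 ± 0.10 (adjusted p = 0.0393), a call lost without Control replicate 1 or any single PCOS replicate (adjusted p = 0.0584 to 0.0935), with -0.11 ± 0.13 (adjusted p = 0.557) in PCOS-MV. Etfa ranged from 65.0 to 88.8 FPKM and Etfdh from 45.1 to 71.4, and their differences in PCOS, -0.22 ± 0.08 (adjusted p = 0.0712) and -0.27 ± 0.10 (adjusted p = 0.0877), were negative. Etfa was called lower without PCOS replicate 1 (adjusted p = 0.0476) and Etfdh without Control replicate 3 (adjusted p = 0.0236).

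Genes of general mitochondrial content, 24 tested from a list of housekeeping, respiratory and import genes, gave a reference for the mitochondrial members. In PCOS, 4 fell and 0 rose (16.7% called, against 27.4% of all genes), with a median difference of -0.21. Of the 21 mitochondrial members, 11 were called (52.4%), 7 lower and 4 higher, with a median of -0.18. In PCOS-MV against PCOS, 5 of the 24 rose and 0 fell (20.8% called, against 25.7% of all genes), with a median of 0.21. Among the mitochondrial members 6 rose and 1 fell (33.3% called), with a median of 0.14. The medians of the members were thus no further from 0 than those of the reference list, and the called members lay in both directions where the called reference genes all fell in PCOS and all rose in PCOS-MV. Among the reference genes Hspd1, the mitochondrial chaperonin, had 531 ± 269.9 FPKM in control, 225 ± 19.8 in PCOS and 476 ± 142 in PCOS-MV, a difference of -1.09 ± 0.34 (adjusted p = 0.0436) in PCOS that was lost without Control replicate 1 or 2 or any single PCOS replicate (adjusted p = 0.0725 to 0.107). The fusion proteins Mfn1 and Opa1 differed by -0.61 ± 0.12 (adjusted p = 0.00629) and -0.55 ± 0.07 (adjusted p = 0.000978).

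Of the 4 tested peroxisomal members, 2 rose (50.0%, against 11.9% of all genes) and 1 fell (25.0%, against 15.6%) in PCOS. With MV 3 of the 4 fell, against 11.4% of all genes. Crot, the carnitine octanoyltransferase that exports chain-shortened acyl groups from the peroxisome (chromosome 4, 22081604 to 22116265), measured 23.1, 29.3, 26.7 and 25.4 FPKM in control, 48.3, 65.8, 54.1 and 47.1 in PCOS and 23.6, 21.3, 22.8 and 27.9 in PCOS-MV. Every PCOS library was above every other library, and PCOS-MV overlapped control. Crot rose by 1.01 ± 0.12 (adjusted p = 0.000463) in PCOS, a mean 2.06-fold higher, and fell by 1.13 ± 0.12 (adjusted p = 0.000557) in PCOS-MV. Acaa1a, the peroxisomal thiolase, measured 23.0, 18.1, 15.6 and 14.8 FPKM in control, 38.9, 29.1, 26.7 and 34.5 in PCOS and 19.2, 18.4, 19.9 and 19.1 in PCOS-MV. The PCOS libraries were again the highest, and Acaa1a rose by 0.83 ± 0.16 (adjusted p = 0.00553) in PCOS and fell by 0.71 ± 0.11 (adjusted p = 0.00288) in PCOS-MV. The calls of both genes were kept without any single library. Rats carry a second, closely related peroxisomal thiolase gene, so reads of Acaa1a may be shared between the copies.

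Acox3, the oxidase for branched chains, fell. It measured 13.0, 12.9, 14.1 and 13.2 FPKM in control, 9.62, 10.6, 10.01 and 8.19 in PCOS and 10.4, 11.1, 13.4 and 11.1 in PCOS-MV. The PCOS libraries were below all control libraries, PCOS-MV overlapped both, and Acox3 fell by 0.43 ± 0.08 (adjusted p = 0.0062) in PCOS with 0.24 ± 0.10 (adjusted p = 0.12) in PCOS-MV. Ehhadh, the bifunctional enzyme of the peroxisomal hydration and oxidation steps, measured 0.655, 1.04, 14.1 and 1.24 FPKM in control, 2.86, 3.12, 1.86 and 2.82 in PCOS and 1.13, 1.198, 0.964 and 1.66 in PCOS-MV. Control replicate 3 stood far above all other libraries, and apart from it PCOS was above both other groups. With all libraries the difference was 0.15 ± 0.63 (adjusted p = 0.883) in PCOS against control, and without Control replicate 3 it was 0.89 (adjusted p = 0.0057). Ehhadh fell by 0.71 ± 0.14 (adjusted p = 0.00863) in PCOS-MV against PCOS, a comparison without control libraries, and was not called there in the model over all 12 libraries, whose estimate of the spread includes Control replicate 3 (adjusted p = 0.386). The same control library had the highest adipocyte marker sum of its group, 89.4 FPKM against 82.3, 27.1 and 51.5, and the highest ciliated oviduct sum, 14.8 against 2.07, 2.10 and 3.37. It also had the highest hepatocyte sum, 3.60 FPKM against 0.443, 0.796 and 0.501, and the highest Acta1, 7.07 FPKM. The part of these cells in its Ehhadh value was not tested. Acox2, the oxidase of bile acid side chains, was at 0 to 0.201 FPKM and was not tested.

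Other genes of the peroxisome were read against the members. Of 14 further genes of peroxisomal beta-oxidation and import, 4 rose and 0 fell in PCOS (28.6% called, near the 27.4% of all genes), with a median of 0.02. With MV 2 of these rose and 3 fell (35.7% called, against 25.7% of all genes). Phyh, which starts the alpha-oxidation of phytanic acid, had 61.0 ± 20.6 FPKM in control, 143 ± 12.8 in PCOS and 69.4 ± 11.5 in PCOS-MV, with 1.28 ± 0.22 (adjusted p = 0.0031) in PCOS and -1.05 ± 0.13 (adjusted p = 0.000959) in PCOS-MV. Catalase, Cat, differed by 0.40 ± 0.12 (adjusted p = 0.035) in PCOS, lost without Control replicate 3 or 4 or any single PCOS replicate (adjusted p = 0.0505 to 0.0835), and Scp2, the sterol carrier that holds a thiolase, by 0.37 ± 0.12 (adjusted p = 0.0497), lost without Control replicate 2, 3 or 4 or PCOS replicate 1, 2 or 4 (adjusted p = 0.0742 to 0.12). Genes of peroxisome assembly, 15 tested, had 2 higher and 2 lower in PCOS (26.7% called, near the 27.4% of all genes) and a median of -0.07. Pex14, a docking protein for import, differed by -0.69 ± 0.11 (adjusted p = 0.00215) in PCOS and 0.75 ± 0.12 (adjusted p = 0.00284) in PCOS-MV. Pex10 went the other way, with 0.52 ± 0.15 (adjusted p = 0.0371) in PCOS, lost without Control replicate 2 or 4 or PCOS replicate 1, 2 or 3 (adjusted p = 0.0738 to 0.0981), and -0.72 ± 0.11 (adjusted p = 0.00238) in PCOS-MV.

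Of 6 tested activation and transport members, 3 acyl-CoA synthetases fell and 1 transporter rose in PCOS (66.7% called, against 27.4% of all genes). With MV 3 synthetases rose (50.0% called, against 25.7%). Acsl1, the synthetase of oxidative and lipid-storing tissues (chromosome 16, 48937456 to 49003246), measured 24.6, 18.3, 18.3 and 15.4 FPKM in control, 7.08, 7.53, 8.30 and 7.42 in PCOS and 16.2, 12.6, 23.8 and 13.1 in PCOS-MV. The highest PCOS library, 8.30 FPKM, was below the lowest of the others, 12.6, and Acsl1 fell by 1.21 ± 0.13 (adjusted p = 0.000271) in PCOS, a mean 2.53-fold lower, and rose by 0.98 ± 0.18 (adjusted p = 0.00533) in PCOS-MV. Acsl3, the synthetase of lipid droplets and the endoplasmic reticulum, measured 29.3, 38.8, 54.3 and 47.8 FPKM in control, 18.2, 12.1, 15.8 and 15.6 in PCOS and 22.7, 23.9, 77.2 and 38.7 in PCOS-MV. All PCOS libraries were below the rest, while the PCOS-MV libraries spread over 22.7 to 77.2 FPKM with replicate 3 highest. Acsl3 fell by 1.39 ± 0.19 (adjusted p = 0.00109) in PCOS, and it rose by 1.18 ± 0.35 (adjusted p = 0.0394) in PCOS-MV, a call lost without any single PCOS replicate or without PCOS-MV replicate 4 (adjusted p = 0.0618 to 0.0995).

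Acsl4, the synthetase that prefers arachidonic acid and is known from steroid-producing cells, measured 89.3, 74.3, 46.6 and 53.5 FPKM in control, 41.5, 36.6, 26.8 and 31.8 in PCOS and 82.6, 51.1, 44.5 and 39.6 in PCOS-MV. The highest PCOS value, 41.5 FPKM, was below the lowest control value, 46.6, and Acsl4 fell by 0.90 ± 0.21 (adjusted p = 0.0146) in PCOS with 0.62 ± 0.23 (adjusted p = 0.0794) in PCOS-MV. Acsl5, a mitochondrial-membrane synthetase, measured 16.4, 17.1, 24.9 and 18.7 FPKM in control, 15.4, 14.7, 14.4 and 16.3 in PCOS and 15.99, 21.6, 20.3 and 20.1 in PCOS-MV. Its PCOS-MV replicate 1 lay within the PCOS range, and Acsl5 rose by 0.33 ± 0.10 (adjusted p = 0.0374) in PCOS-MV, a call kept without PCOS-MV replicate 1 and lost without any other single library (adjusted p = 0.0574 to 0.0931), with -0.31 ± 0.12 (adjusted p = 0.104) in PCOS. Acsl6, the neuronal synthetase, was at 0.139 to 1.12 FPKM and was not tested. Slc27a1, a fatty acid transport protein with synthetase activity, measured 60.9, 48.7, 34.2 and 48.9 FPKM in control, 78.8, 68.9, 59.1 and 70.2 in PCOS and 83.8, 79.5, 44.7 and 93.9 in PCOS-MV. PCOS overlapped control at PCOS replicate 3 and Control replicate 1, and Slc27a1 rose by 0.54 ± 0.17 (adjusted p = 0.0428), a call lost without Control replicate 2 or 4 or PCOS replicate 1, 2 or 4 (adjusted p = 0.0767 to 0.101), with 0.08 ± 0.22 (adjusted p = 0.822) in PCOS-MV. Slc27a4, its relative, ranged from 7.11 to 10.8 FPKM and was not called.

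**Figure D3:**
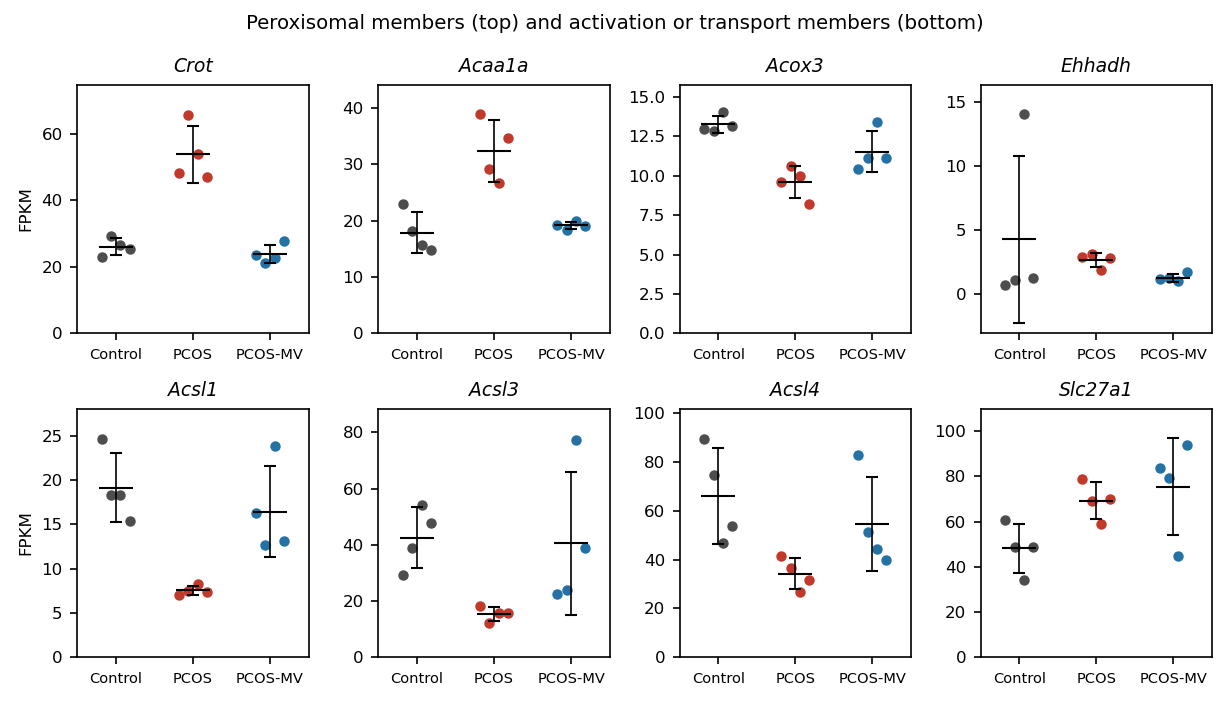
FPKM of 4 peroxisomal members (top row) and 4 activation or transport members (bottom row) in each library, with group mean and SD, 4 rats per group. Crot and Acaa1a are highest in PCOS, Acsl1, Acsl3 and Acsl4 are lowest in PCOS, and in Ehhadh 1 control library at 14.1 FPKM sets the mean and takes the SD bar below 0.

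Genes of uptake, activation and binding outside the members also moved in both directions. Of 14 tested, 5 rose and 3 fell in PCOS (57.1% called, against 27.4% of all genes), and 3 rose and 5 fell with MV (57.1%, against 25.7%). Fabp3, the heart-type fatty acid binding protein, had 39.0 ± 5.70 FPKM in control, 344 ± 51.4 in PCOS and 44.6 ± 34.3 in PCOS-MV, with 3.11 ± 0.14 (adjusted p = 5.13e-06) in PCOS and -3.30 ± 0.55 (adjusted p = 0.00346) in PCOS-MV. Acsbg1, the bubblegum synthetase for very long chains, had 99.0 ± 11.8 FPKM in control, 824 ± 15.2 in PCOS and 111 ± 39.4 in PCOS-MV, with 3.05 ± 0.10 (adjusted p = 2.51e-06) and -2.96 ± 0.24 (adjusted p = 0.000139). Fabp4, the binding protein of adipocytes and endothelium, went the other way, with 17.98 ± 8.96 FPKM in control, 2.15 ± 0.746 in PCOS and 19.7 ± 14.2 in PCOS-MV and differences of -2.49 ± 0.34 (adjusted p = 0.00107) and 2.37 ± 0.58 (adjusted p = 0.0186), the last of which was lost without PCOS replicate 3 (adjusted p = 0.0532). Beside Fabp4, the endothelial markers summed to 81.6 to 104 FPKM in control, 48.4 to 62.8 in PCOS and 70.4 to 107 in PCOS-MV. Of the 4 tested, 3 were lower in PCOS, and Vwf was higher, at 8.57 to 10.7 FPKM in control and 10.9 to 14.9 in PCOS. The part of endothelial cells in the Fabp4 values was not tested. Thus Acsbg1 was higher in PCOS while Acsl1, Acsl3 and Acsl4, which make the same kind of product, were lower.

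The acyl-CoA thioesterases release free fatty acid from coenzyme A, Acot1 in the cytosol and Acot2 in the mitochondrion. Acot1 (chromosome 6, 107485249 to 107493798) measured 3.80, 9.33, 4.33 and 6.49 FPKM in control, 2.52, 2.19, 1.31 and 2.70 in PCOS and 14.2, 23.6, 4.62 and 20.7 in PCOS-MV. All PCOS libraries were below all control libraries, and PCOS-MV was above PCOS in each library, with replicate 3 far below the other 3. Acot1 fell by 1.09 ± 0.25 (adjusted p = 0.0134) in PCOS and rose by 2.23 ± 0.43 (adjusted p = 0.00696) in PCOS-MV, a mean 7.25-fold higher than in PCOS. Against control the difference was 1.13 ± 0.47 (adjusted p = 0.571), and PCOS-MV overlapped control at replicate 3. Acot2 (chromosome 6, 107460668 to 107467487) measured 29.2, 26.2, 16.4 and 24.6 FPKM in control, 16.7, 16.3, 12.8 and 14.4 in PCOS and 33.2, 35.9, 19.5 and 33.5 in PCOS-MV. PCOS overlapped control at Control replicate 3, and Acot2 fell by 0.62 ± 0.17 (adjusted p = 0.026), a call lost without Control replicate 1, 2 or 4 or PCOS replicate 3 or 4 (adjusted p = 0.0556 to 0.071), and rose by 0.94 ± 0.19 (adjusted p = 0.00766) in PCOS-MV, where it was kept without any single library. The 2 genes are close copies that lie side by side, so their reads may be split or shared, and their values are uncertain as separate measurements.

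Several members that were high in PCOS-MV spread widely between its 4 rats. Cpt1a, Cpt1b, Hadha and Hadhb were highest in replicates 2 and 4 and lowest in replicates 1 and 3, and Acot1 was lowest in replicate 3. Cpt2, Crat and Acsl1 did not share this order, since Cpt2 and Acsl1 were high in replicates 1 and 3. The luteal markers, which mark the corpus luteum, summed to 6879, 2904, 6228 and 2880 FPKM in PCOS-MV replicates 1 to 4, high in the same replicates as Cpt2 and Acsl1. The theca-interstitial markers, described below, summed to 204.9, 77.0, 153 and 93.4 FPKM in the same libraries, also high in replicates 1 and 3. The granulosa markers, at 762, 790, 1105 and 582 FPKM, did not share this order. No label divides these rats, and the part of luteal or theca-interstitial tissue in these levels was not tested.

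**Figure D4:**
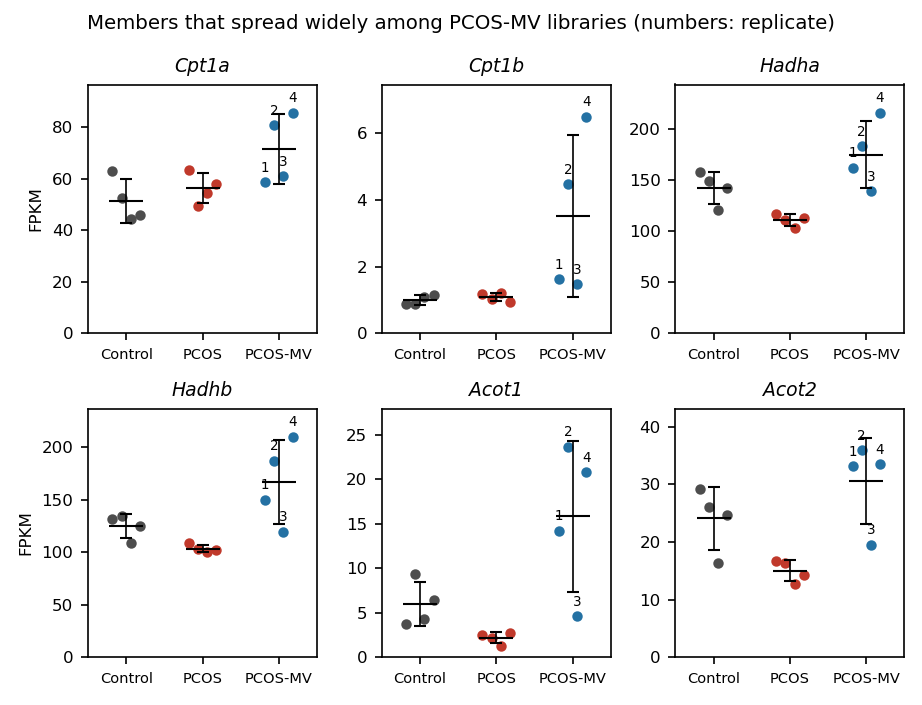
FPKM of 6 members in each library, with the replicate number above each PCOS-MV point and the group mean and SD, 4 rats per group. In Cpt1a, Cpt1b, Hadha and Hadhb, PCOS-MV replicates 2 and 4 lie above replicates 1 and 3, for Cpt1b at 4.46 and 6.48 against 1.61 and 1.47 FPKM, and in Acot1 and Acot2 replicate 3 is the lowest.

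Of the coactivators of mitochondrial and oxidative genes, Ppargc1a was at 0.249 to 1.87 FPKM, with the top value in Control replicate 3, and was not tested. Ppargc1b measured 4.16, 5.04, 3.65 and 3.64 FPKM in control, 2.73, 2.84, 2.48 and 2.87 in PCOS and 4.42, 3.69, 5.21 and 3.43 in PCOS-MV. No PCOS library reached the level of another group, and Ppargc1b fell by 0.45 ± 0.11 (adjusted p = 0.0142) in PCOS and rose by 0.46 ± 0.12 (adjusted p = 0.0199) in PCOS-MV, the last lost without PCOS replicate 3 (adjusted p = 0.0555). Of 19 regulators of fatty acid oxidation tested, 1 rose and 6 fell in PCOS (36.8% called, against 27.4% of all genes), with a median of -0.17. With MV 4 of these rose and 1 fell (26.3% called, near the 25.7% of all genes). Esrra, the nuclear receptor that works with both coactivators, had 18.5 ± 0.298 FPKM in control, 10.6 ± 0.443 in PCOS and 19.3 ± 3.51 in PCOS-MV, with -0.76 ± 0.06 (adjusted p = 5.61e-05) in PCOS and 0.80 ± 0.12 (adjusted p = 0.00224) in PCOS-MV. Ppara, the fatty acid-sensing receptor of oxidation genes, rose in PCOS instead, with 3.58 ± 0.517 FPKM in control, 10.7 ± 1.42 in PCOS and 3.39 ± 1.30 in PCOS-MV and differences of 1.35 ± 0.12 (adjusted p = 9.15e-05) and -1.45 ± 0.19 (adjusted p = 0.00115). Mlycd, which breaks down the Cpt1 inhibitor malonyl-CoA, differed by -0.66 ± 0.10 (adjusted p = 0.00139) and 0.51 ± 0.09 (adjusted p = 0.00524).

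The supply of carnitine and the use of the acetyl-CoA that beta-oxidation makes were also listed. Among the 4 carnitine supply genes tested, 3 rose in PCOS, against 11.9% of all genes, and 0 fell. With MV 2 of these fell, against 11.4% of all genes, and 0 rose. Bbox1, which makes carnitine in its last step, had 1.199 ± 0.469 FPKM in control, 5.82 ± 0.778 in PCOS and 0.374 ± 0.311 in PCOS-MV, with 1.65 ± 0.16 (adjusted p = 0.000174) in PCOS and -2.33 ± 0.16 (adjusted p = 9.34e-05) in PCOS-MV. Aldh9a1, an earlier enzyme, and Slc22a5, the carnitine importer, differed in PCOS by 0.32 ± 0.09 (adjusted p = 0.0245) and 0.29 ± 0.08 (adjusted p = 0.0342). The call of Aldh9a1 was lost without Control replicate 2 or 4 or PCOS replicate 1 or 4 (adjusted p = 0.0585 to 0.0737), and that of Slc22a5 without any library other than PCOS replicate 3 (adjusted p = 0.0563 to 0.0863). Of 18 other mitochondrial fatty acid and ketone body genes, 4 rose and 7 fell in PCOS (61.1% called, against 27.4% of all genes). With MV 1 of these rose and 4 fell (27.8% called, near the 25.7% of all genes). Acot9, a mitochondrial thioesterase, differed by -0.57 ± 0.06 (adjusted p = 0.00034) in PCOS and 0.53 ± 0.06 (adjusted p = 0.000848) in PCOS-MV against PCOS.

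Sums of several cell type markers also differed between the groups, but not all of them moved back towards control with MV. The luteal markers summed to 4128 to 7970 FPKM in control, 1797 to 3444 in PCOS and 2880 to 6879 in PCOS-MV, lower in each PCOS library than in each control library. The theca-interstitial markers, which include Cyp17a1 of androgen synthesis, summed to 106 to 139 FPKM in control, 1685 to 3186 in PCOS and 77.0 to 205 in PCOS-MV, and the granulosa markers to 637 to 870.4 FPKM in control, 1080 to 1533 in PCOS and 582 to 1105 in PCOS-MV. By count, 3 of 5 tested luteal markers were lower and 1 higher in PCOS, 4 of 6 theca-interstitial markers higher and 1 lower, and 4 of 7 granulosa markers higher. With MV, 1 luteal marker was higher and 1 lower, while 5 theca-interstitial and 3 granulosa markers were lower. Of all genes tested, 11.9% were higher and 15.6% lower in PCOS, and 14.3% higher and 11.4% lower with MV. The adipocyte markers fell in PCOS in 4 of 4 tested, with sums of 27.1 to 89.4 FPKM in control, 15.4 to 27.3 in PCOS and 17.1 to 23.1 in PCOS-MV, and Plin1 and Cidec of adipocyte lipid droplets were at most 0.323 and 0.407 FPKM in PCOS. The PCOS-MV adipocyte sums thus lay within the PCOS range and below every control library, and 1 of the 4 tested was higher with MV. Smooth muscle sums were 328 to 888 FPKM in control, 450.2 to 573 in PCOS and 324 to 665 in PCOS-MV, leukocyte sums 40.0 to 59.6 FPKM in control, 48.8 to 57.2 in PCOS and 51.6 to 63.1 in PCOS-MV, and hepatocyte sums 0.443 to 3.60 FPKM in control, 0.275 to 6.65 in PCOS and 0.355 to 2.49 in PCOS-MV. The hepatocyte sums were high in single libraries, mostly through 1 of the 4 markers. That marker was at 3.48 FPKM in Control replicate 3 and 2.25 in PCOS-MV replicate 4, and another was at 4.33 in PCOS replicate 2. The members that fell in PCOS thus fell where luteal, endothelial and adipocyte sums were low, though the adipocyte sums were low in PCOS-MV too. Crot, Acaa1a, Hadh and Acadl were high where theca-interstitial and granulosa sums were high. The part of the cell mixture in the values of the members was not tested.

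**Figure D5:**
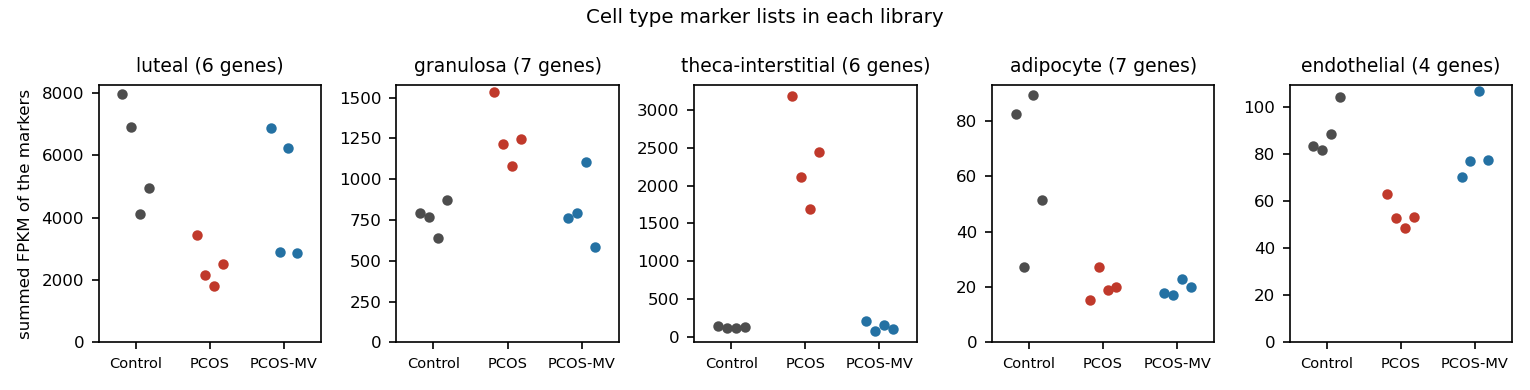
Summed FPKM of 5 cell type marker lists, 1 point per library, 4 rats per group, on axes that differ between lists. Luteal and endothelial sums are lower in every PCOS library than in control, theca-interstitial and granulosa sums are higher, and the adipocyte sum of Control replicate 3 is 89.4 FPKM.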

How the data were processed

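Ovarian RNA of 12 rats was sequenced in 1 library per rat. Per the study's methods, the authors mapped filtered reads with HISAT2, summed them over genes with featureCounts and scaled the counts to FPKM, whereas the submitters' processing notes list STAR 2.5.1b and HTSeq 0.6.0, and which of these made the table was not settled here. The genome build is not given in the sources used here. The authors deposited FPKM values for 19730 genes, repeated on 26928 transcript lines without differing between the lines of a gene. Their columns of group means and of fold changes and p-values from their own comparisons were not used. FPKM hold no counts, so the depth of the libraries is unknown and no counting interval is given. The columns named MG were read as PCOS-MV, the mogroside group.

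From the deposited FPKM, log2(FPKM + 1) was tested with limma 3.58.1 in R 4.3.3 (lmFit, eBayes with trend), 2 groups at a time, 4 libraries against 4, without covariates, over 13430 genes (mean FPKM of the 12 libraries 1 or more). P-values were adjusted by the method of Benjamini and Hochberg over all genes tested, with a threshold of 0.05. The log2 scale with a pseudocount of 1 FPKM understates the change of low genes. For single members an exact permutation test, two-sided, was run as well (scipy 1.17.1), and its smallest p is 0.0286. Tables were made with Python 3.11.15 and pandas 2.3.3. The limma step was tested on simulated data before use. Values in every library are given for each member called in the comparisons with PCOS and for Cpt1a, Cpt1b, Cpt1c, Acox3 and Ehhadh, and from each list of other pathway genes at most the 3 called genes with the largest difference in PCOS against control. The members and all gene lists were chosen with earlier results of these data known. A few genes of these lists are counted but their values are not reported here. The results were recomputed with another pseudocount, with other filters on low values, with 1 model over all 12 libraries, after rescaling by median ratios, with the replicate number as a block, and without each library in turn.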

Additional observations from a re-analysis of the deposited data

Results flagged for a closer look

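Among 111 groups of 4 libraries, 5 held a member value far from the other 3, where about 5.55 such groups would be expected at 1 in 20. Ehhadh in Control replicate 3 was at 14.1 FPKM against 0.655 to 1.24 in the other libraries of its group, and Acox2 in the same library at 0.201 FPKM against 0 to 0.0245 in the other libraries of its group. Both are peroxisomal members, and the library also had the highest sums of adipocyte, smooth muscle, skeletal muscle, ciliated oviduct and hepatocyte markers among the control libraries. Eci1 in PCOS-MV replicate 3 was at 34.8 FPKM against 59.6 to 61.2 in the other libraries of its group, and Acot2 in that library at 19.5 FPKM against 33.2 to 35.9 in the other libraries of its group. Acaa2 in PCOS replicate 3 was at 125 FPKM against 159.9 to 166 in the other libraries of its group.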

How the results depend on the processing

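Of the 21 members called in PCOS against control, 12 kept their call and direction under every alternative, and of the 16 called in PCOS-MV against PCOS, 11 did. Without each library in turn, the members called higher in PCOS numbered 4 to 9 and those called lower 10 to 15, and the counts in PCOS-MV against PCOS were 8 to 13 higher and 4 to 6 lower. One model over all 12 libraries gave 4 members higher in PCOS, in place of 7. The other pseudocount, filters and rescaling left each of these counts within 1.5 times its value, and 0 members were called in PCOS-MV against control under any alternative. The labels do not say whether the replicate numbers pair the rats. Same-numbered libraries deviated together with r of -0.03 to 0.02 for PCOS and control, of 0.04 to 0.17 for PCOS-MV and PCOS, and of -0.05 to 0.22 for PCOS-MV and control. These values cannot show whether such libraries shared a batch. With the replicate block, 6 members were higher and 13 lower in PCOS, and 11 higher and 4 lower in PCOS-MV against PCOS. Differences that changed sign when a library was left out were all of members not called, in these ranges on the log2 scale: in PCOS against control Ehhadh -0.18 to 0.89, in PCOS-MV against PCOS Cpt1c -0.084 to 0.059, Acadm -0.026 to 0.028, Eci1 -0.23 to 0.032 and Slc27a1 -0.043 to 0.31, and in PCOS-MV against control Slc25a20 -0.18 to 0.030, Crat -0.028 to 0.15, Acads -0.11 to 0.050, Echs1 -0.14 to 0.11, Hadh -0.095 to 0.072, Acaa2 -0.046 to 0.086, Etfa -0.11 to 0.009, Ehhadh -0.88 to 0.18, Acsl3 -0.57 to 0.005, Acsl5 -0.039 to 0.15, Slc27a4 -0.032 to 0.037 and Ppargc1b -0.077 to 0.096. The cause of these changes was not tested. Depth cannot be read from FPKM, so the precision of Acox2, Acsl6 and Ppargc1a, all under a mean of 1 FPKM, is unknown.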

Other observations

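A few genes that fatty acid supply is known to induce were looked up after the values of the members had been seen. Angptl4, a secreted inhibitor of lipoprotein lipase, was at 67.8, 75.2, 48.5 and 59.3 FPKM in control, 21.1, 30.4, 30.0 and 27.2 in PCOS and 73.7, 73.7, 64.8 and 69.6 in PCOS-MV. All 4 PCOS libraries were below the rest, with a log2 difference of -1.17 (adjusted p = 0.00094) in PCOS against control and 1.35 (adjusted p = 0.000204) in PCOS-MV against PCOS. Plin2, the coat protein of lipid droplets, was at 99.981, 136, 115 and 129 FPKM in control, 29.6, 33.9, 41.0 and 32.9 in PCOS and 114, 124, 273 and 199.9 in PCOS-MV. It was again lowest in PCOS, with -1.77 (adjusted p = 3.52e-05) and 2.26 (adjusted p = 0.000727), and PCOS-MV replicates 3 and 4 were above every control library. Pdk4, which shuts off pyruvate oxidation, was at 9.20, 20.4, 18.2 and 19.9 FPKM in control, 8.30, 12.1, 12.7 and 9.17 in PCOS and 10.7, 16.3, 19.4 and 22.1 in PCOS-MV, and the differences of -0.59 (adjusted p = 0.109) and 0.62 (adjusted p = 0.0697) did not pass the threshold.

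Of the thioesterase genes related to Acot1 and Acot2, Acot3 was at 6.43, 5.72, 6.05 and 6.53 FPKM in control, 4.63, 6.05, 4.73 and 5.63 in PCOS and 7.42, 7.75, 6.92 and 7.86 in PCOS-MV. PCOS-MV was above PCOS and control in every library, with 0.44 (adjusted p = 0.0106) against PCOS and 0.24 (adjusted p = 0.509) against control. Acot4, under the mean of 1 FPKM and not tested, was at 0.402, 0.919, 0.392 and 0.611 FPKM in control, 0.448, 0.0874, 0.0418 and 0.138 in PCOS and 1.61, 2.59, 0.471 and 2.67 in PCOS-MV, with replicate 3 the lowest of the PCOS-MV libraries, as for Acot1.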
